A study of Rattus norvegicus with 11 samples.

Results

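Soleus muscle transcripts were compared between rats with high and with lower plasma insulin. Plasma insulin stands among the animal labels, and the groups were formed at a value of 2 ng/ml: 4 animals at or above it (A110, C91, C25 and H20) were called high and 6 below it (C73, C60, H10, A89, A75 and H1) were called lower. Together they are 10 of the 11 animals of the series. The remaining animal, A37, has no insulin label and entered no comparison. No gene chose the groups.

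All animals were male Sprague Dawley offspring killed at 12 months of age, each from a litter of its own. Their mothers ate either a control diet (10% sucrose, with 6 or 7% fat in different places of the labels) or a diet high in sucrose and saturated fat (20% sucrose, with 23.3 or 23.5% fat) from 3 weeks before mating until weaning. The offspring themselves were weaned on day 21 and ate chow from then on, were fasted for 1 to 2 hours, and were anaesthetised with isoflurane before the muscle was frozen. The high-insulin group held 1 offspring of a control mother (A110) and 3 of high-fat mothers; the lower-insulin group held 5 offspring of control mothers and 1 of a high-fat mother (H1). Insulin and maternal diet were therefore largely aligned. The fit without diet cannot tell them apart, and the fit with diet as a covariate rests on A110 against 5 control animals and on H1 against 3 high-fat animals.

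Insulin binds its receptor on muscle fibres, and the receptor phosphorylates the substrate proteins IRS1 and IRS2. These recruit PI3 kinase, which activates Akt. Akt moves the glucose transporter GLUT4 (Slc2a4) to the surface, and keeps FoxO factors out of the nucleus, so that FoxO targets such as Pdk4 are low after a meal and higher in fasting. SOCS proteins are feedback inhibitors of cytokine receptors that can also bind IRS proteins, and a rise in circulating insulin at unchanged glucose is a common sign of reduced insulin action.

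The libraries held 10156225 to 15362013 counted reads, and 10820 of 16810 listed genes were tested. Levels are CPM after TMM scaling, that is, the reads of a gene relative to the reads of the genes tested in its library, adjusted by a scaling factor. Relative to all counted reads and without that factor, 3 counts correspond to 0.195 to 0.295 CPM. Slow fibre markers dominated, with a summed level of 83500 to 101000 CPM in high-insulin and 89200 to 106000 CPM in lower-insulin animals, as the soleus label implies. Within-group pairs of libraries differed far beyond counting noise (the smallest chi-square per degree of freedom over 21 pairs was 22), so no library duplicated another of its group. Pairs across the groups, and pairs with A37, were not compared. The first principal component held 23% of the variance and did not separate the insulin groups. H20 lay farthest out on it (-27.2, with H1 at 24.2 on the other side). On the second, with 16.3%, C91 (25.4) and H20 (20.8) were the highest, and on the third, with 13.4%, H20 again lay farthest out. RNA was taken from whole muscle, so fewer cells of a type and less RNA per cell cannot be told apart in any value below.

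Plasma insulin was 2.08 ng/ml in A110, 2.29 in C91, 2.57 in C25 and 2.65 in H20, and ran from 1.36 to 1.67 ng/ml in the lower group. The index of insulin resistance HOMA-IR, which multiplies insulin by glucose, was 19.7 ± 8.51 (SD, n = 4) against 10.7 ± 1.64 (SD, n = 6). Insulin follows from the grouping and HOMA-IR follows from it in part, so neither carries a test. HOMA-IR overlapped: it was 14.5 in A110, 13.6 in C91, 18.7 in C25 and 32.1 in H20, against 9.28 to 13.8 in the lower group. Glucose (in mmol, as labelled) was 6.36 in A110, 5.40 in C91, 6.60 in C25 and 11.0 in H20, against 5.04 to 7.92 in the lower group, so that H20 alone stood above it. The value of 6.36 is shared by A110, C73 and C60, and whether it was measured in each is not stated. The groups did not pass the test (exact permutation test, two-sided, p = 0.486, adjusted p = 0.909 over 12 measures). Without H20 the difference of 0.975 mmol became -0.24 mmol.

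Body fat was larger in 3 of the 4 high-insulin animals. Total fat was 38.0 g in A110, 99.1 g in C91, 76.0 g in C25 and 94.9 g in H20, against 24.0 to 77.4 g in the lower group, with means of 77.0 ± 27.9 g (SD, n = 4) and 50.0 ± 17.9 g (SD, n = 6). Perirenal fat, the main depot in this difference, was 53.1 ± 23.9 against 28.1 ± 13.8 g. Both gave an exact permutation p of 0.1, with an adjusted p of 0.4, where the smallest p that 4 against 6 animals allow is 0.00476. This test left maternal diet out, and the 3 fatter high-insulin animals were all offspring of high-fat mothers. It therefore cannot tell insulin group from maternal diet. The exception was A110, which at 4.79% body fat was leaner than 5 of the 6 lower-insulin animals. C91 was unusual in another way: it was the lightest of the 10 at 609 g and the fattest at 16.3% of body weight, with the smallest liver (13.4 g) and heart (1.30 g) of the 10. Heart, kidney, brain, pancreas and body weight did not pass the test either.

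**Figure D1:**
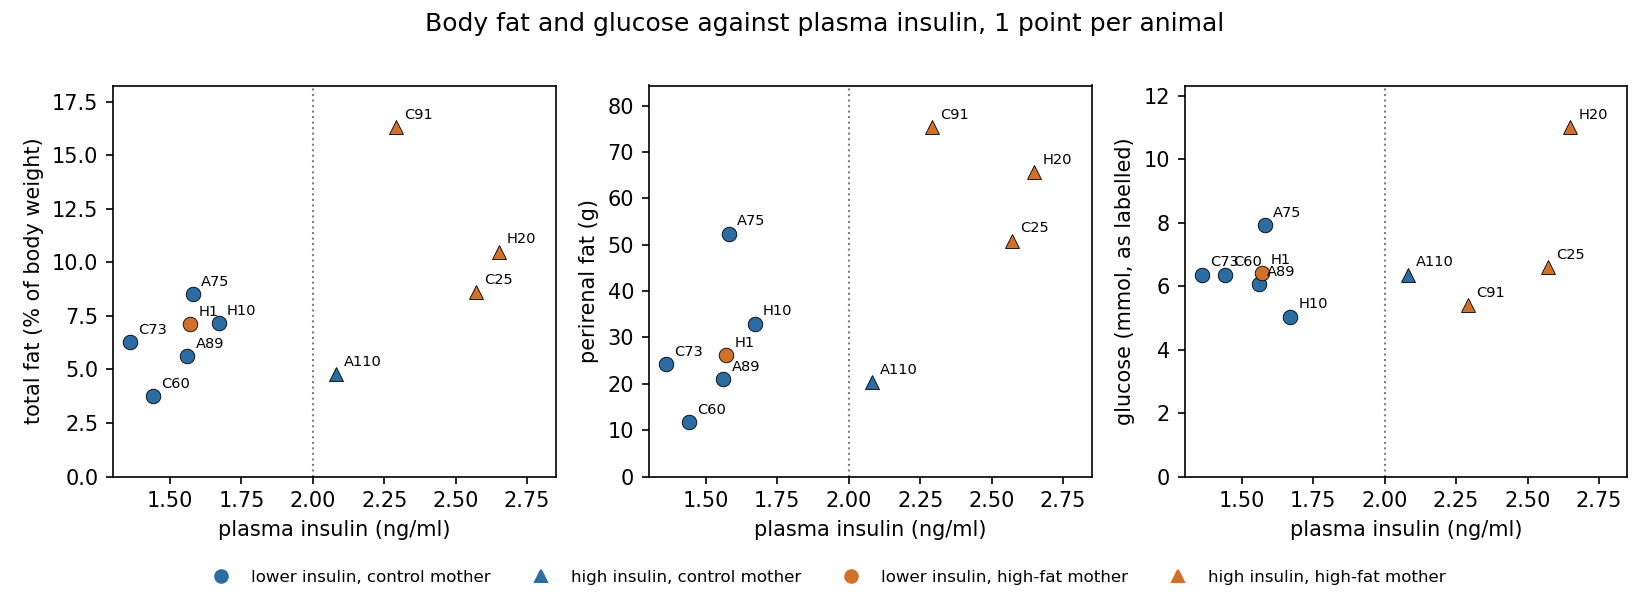
Total fat (% of body weight), perirenal fat (g) and glucose (mmol) against plasma insulin (ng/ml), with 1 point per animal, triangles for the 4 high and circles for the 6 lower animals, blue for control and orange for high-fat mothers; the dotted line is the 2 ng/ml boundary. The 3 orange triangles lie at 8.60% to 16.3% fat, whereas A110 lies at 4.79%, and H20 alone reaches a glucose of 11.0.

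No gene passed an adjusted p of 0.05 in the edgeR quasi-likelihood test of high against lower insulin, with maternal diet in the fit (0% of 10820 genes; smallest adjusted p = 1.00) or without it (0%; 1.00). An unadjusted p under 0.05 was reached by 140 genes with diet (81 higher and 59 lower in high-insulin animals) and by 330 without it (247 higher and 83 lower), against 541 genes that are 5% of those tested. DESeq2 called 0 genes with diet and 2 without it, F2rl1 and Junb, and edgeR's likelihood ratio test called 1 with diet, Fos, and 2 without it, again F2rl1 and Junb; limma voom called 0 in both. Whether the effect of insulin group differed between the maternal diets cannot be decided here. An interaction test rests on A110 and H1, each the only animal with its combination of diet and insulin group. What follows therefore describes values, and the words higher and lower refer to the order of these animals.

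Complete separation was rare. In 26 genes (0.24% of those tested) all 4 high-insulin animals stood above all 6 lower ones, and in 17 (0.157%) all stood below. By random assignment over the 210 possible groupings, a share of 0.00476 of genes would separate in a given direction, more than either observed share. Taking order within each maternal diet instead, so that A110 had to lie beyond the 5 other control animals and all 3 high-fat animals beyond H1, 235 genes (2.17%) were higher and 222 (2.05%) lower in high-insulin animals. Random order within each diet would also give larger shares than these. Both kinds of order are therefore given below as description only.

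Immediate early genes, transcription factors and signalling regulators that cells switch on within minutes of a stimulus, mostly had higher fitted levels in high-insulin animals. Of 18 tested, 16 had a higher fitted level in high-insulin animals without diet and 18 with it, with medians of 0.80 and 0.82 (log2 fold change) against 0.00 for all genes in both fits. For 15 of the 18 the highest of the 10 animals was a high-insulin one, and these maxima were shared out: 4 in A110, 4 in C91, 4 in C25 and 3 in H20. Over all genes tested, the highest animal was a high-insulin one in 37.9%. The summed level of the list overlapped, at 1540 to 2530 CPM in high-insulin and 941 to 1730 CPM in lower-insulin animals. A75, a lower-insulin animal at 1730 CPM, stood above H20 at 1540 CPM. The median was 0.89 without H20 and 0.63 without A110, both without diet. The order within both maternal diets held for 6 of the 18, namely Fos, Junb, Egr2, Egr3, Nr4a1 and Nr4a2, and for 2.17% of all genes tested.

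Junb, a partner of Fos in the AP-1 transcription factor, was the only immediate early gene with no overlap between the groups. Its level was 109 CPM in A110, 77.2 in C91, 109 in C25 and 360 in H20, against a lowest of 50.3, a median of 55.5 and a highest of 63.7 CPM in the lower group. The lower group was tight, and every high-insulin animal exceeded it, H20 by far the most. The log2 fold change was 1.54 ± 0.34 (SE) without diet and 1.36 ± 0.48 with it, both with an adjusted p of 1.00, and without H20 it was 0.80 and 0.91. Per 1 ng/ml of insulin the fitted log2 slope of Junb was 1.71 ± 0.27 (SE) without diet, which had the smallest adjusted p of any gene in edgeR's quasi-likelihood fit (0.357), and 0.92 without H20.

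The Junb promoter is shown because this gene separated the groups and its window holds the core of a FoxO recognition sequence, TGTTTAC, in capitals. It is the RefSeq window from 250 bases before to 50 after the start in GRCr8, chr19:40080876-40081175, plus strand, and the match begins 184 bases before the start. Searched on both strands, TGTTTAC occurs in 3.78% of 33469 such rat promoters. The window was also searched for TGACGTCA, the cAMP response element, and TTCNNNGAA, the STAT recognition sequence (N any base), and held no match to either. A match is a description of letters and no evidence of binding.
Junb: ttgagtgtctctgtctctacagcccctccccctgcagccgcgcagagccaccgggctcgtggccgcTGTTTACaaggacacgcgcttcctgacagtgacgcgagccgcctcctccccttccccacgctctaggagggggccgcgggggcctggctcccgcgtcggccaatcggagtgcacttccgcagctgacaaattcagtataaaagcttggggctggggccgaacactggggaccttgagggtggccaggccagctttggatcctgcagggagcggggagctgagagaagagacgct

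Fos encodes the other AP-1 partner. Its level was 251 CPM in A110, 50.8 in C91, 102 in C25 and 96.3 in H20, and from 21.4 to 117 CPM with a median of 37.3 in the lower group. The groups overlapped through A75, a control animal at 117 CPM, yet A110 exceeded all other control animals and the 3 high-fat high-insulin animals exceeded H1 (21.4 CPM). The log2 fold change was 2.11 ± 0.45 (SE) with diet, with the smallest p of all genes in that fit, and 1.39 ± 0.49 without it. Without A110 it was 1.96 and 0.80.

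Btg2, an inhibitor of cell division, was at 356 CPM in A110, 185 in C91, 147 in C25 and 111 in H20, against 62.2 to 120 CPM in the lower group. Only H20 lay inside the lower range. Its log2 fold change was 1.23 ± 0.31 (SE) with diet and 1.10 ± 0.30 without it, and without A110 0.33 and 0.67. The orphan nuclear receptor Nr4a1 ranged from 173 to 394 CPM in high-insulin and from 46.7 to 235 CPM in lower-insulin animals, and Nr4a2 from 4.79 to 57.8 and from 1.95 to 22.8 CPM, both with the highest value in A110. Egr1, the zinc finger factor of the early growth response, was at 81.5 CPM in A110 and 106 in C25 but at 31.0 in C91 and 20.5 in H20, within the lower range of 16.2 to 48.4 CPM. Jun and Jund, the other Jun proteins, had log2 fold changes of 0.06 ± 0.18 and -0.03 ± 0.23 (SE) without diet.

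**Figure D2:**
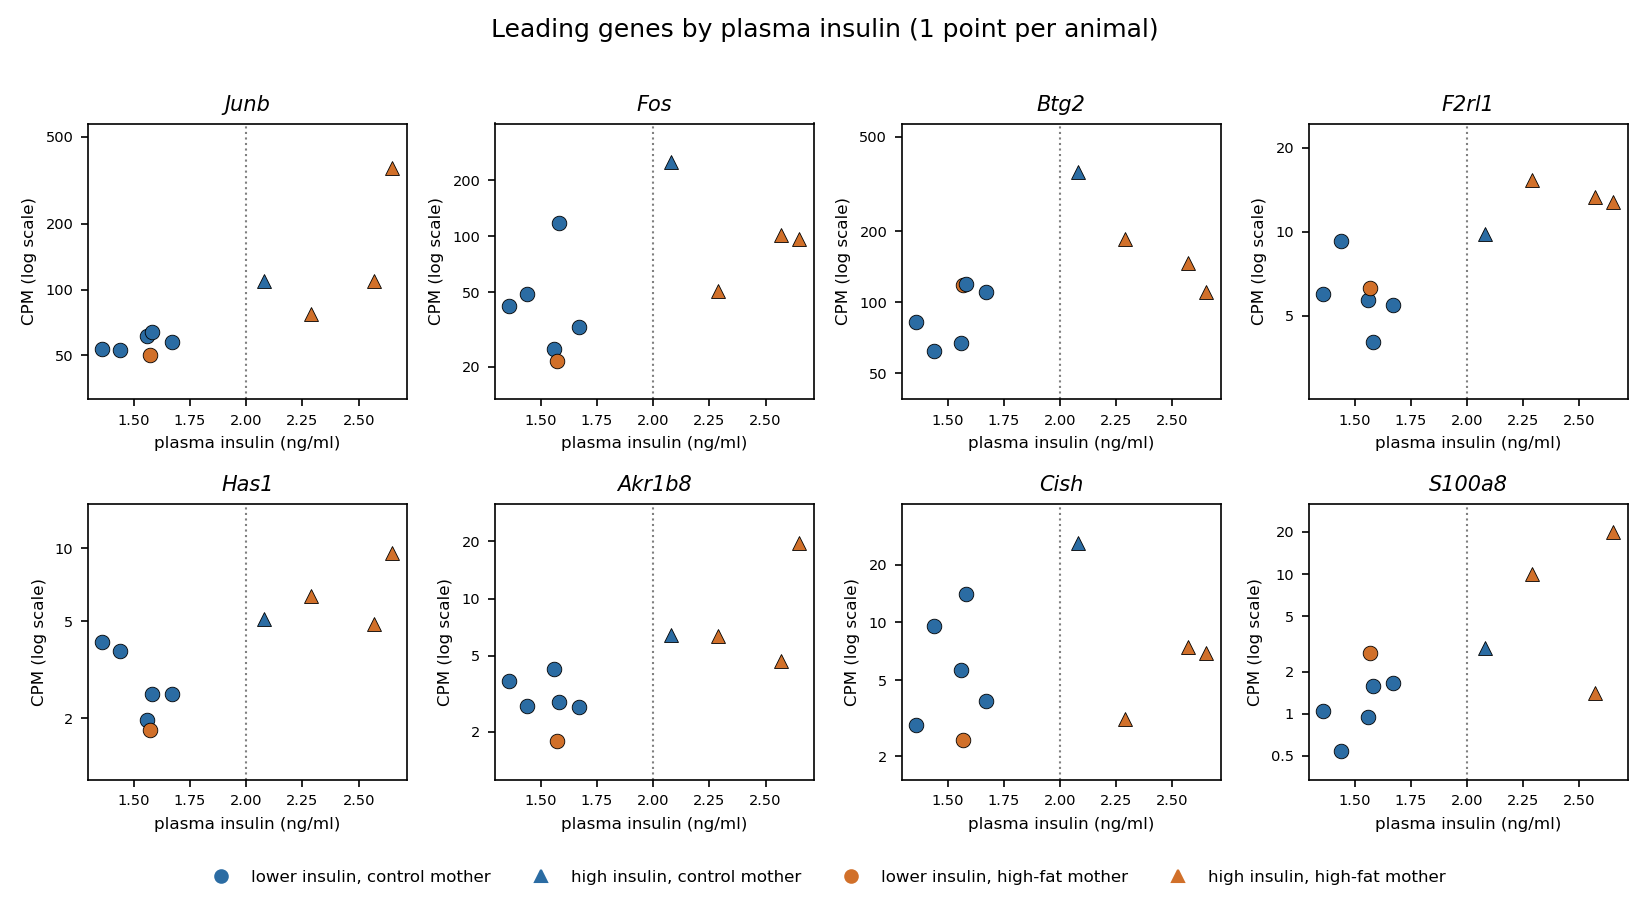
Level in CPM (log scale) of 8 genes against plasma insulin (ng/ml), with 1 point per animal, triangles for the 4 high and circles for the 6 lower animals, blue for control and orange for high-fat mothers. Junb, F2rl1, Has1 and Akr1b8 show no overlap between triangles and circles; Fos, Btg2, Cish and S100a8 do overlap, and A110 leads Fos, Btg2 and Cish while H20 leads Junb, Akr1b8 and S100a8.

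Outside the immediate early genes, F2rl1 had the smallest p without diet. It encodes the protease-activated receptor PAR2, which signals after cleavage by trypsin-like proteases. It was at 9.86 CPM in A110, 15.3 in C91, 13.4 in C25 and 12.8 in H20, and at 4.02 to 9.30 CPM with a median of 5.83 in the lower group. All 4 high-insulin animals were above it, A110 only just. The log2 fold change was 1.07 ± 0.21 (SE) without diet and 0.90 ± 0.27 with it, and stayed between 0.97 and 1.23 without diet whichever animal was left out.

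Has1, which makes the matrix polysaccharide hyaluronan, was at 5.12 CPM in A110, 6.33 in C91, 4.88 in C25 and 9.51 in H20, against 1.79 to 4.11 CPM, with a log2 fold change of 1.22 ± 0.28 (SE) without diet. Akr1b8, an aldo-keto reductase, was at 6.40, 6.33, 4.72 and 19.7 CPM in the same order, against 1.79 to 4.27 CPM, with 1.62 ± 0.38 without diet and 0.94 when H20 was left out. In both, all high-insulin animals again stood above the lower group, at levels of few CPM. Gstt3, a glutathione transferase, was among the 6 smallest p of higher genes in both fits, at 19.3, 17.9, 13.7 and 21.9 CPM against 6.03 to 13.7 CPM, with 0.95 ± 0.21 (SE) without and 0.99 ± 0.27 with diet. Ptger4, a prostaglandin E2 receptor, was at 8.28, 4.20, 8.19 and 9.20 CPM against 2.42 to 6.05 CPM, and the chemokine scavenger receptor Ccbp2 at 5.72, 9.21, 8.61 and 6.74 against 2.98 to 5.42 CPM. C91 lay within the lower range for Ptger4, and the groups did not overlap for Ccbp2.

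Cytokine signalling genes were mostly higher, with H20 far out. Without diet 23 of 26 tested genes had a higher fitted level (median 0.37) and with diet 20 (median 0.19). H20 was the highest of the 10 animals for 14 of the 26, against 12.2% of all genes tested, and without H20 the count was 20 and the median 0.15 (without diet). With diet the median was 0.06 with 15 of 26 higher when H1 was left out, and 0.12 with 18 higher without H20. Socs3, the feedback inhibitor that cytokines of the IL-6 family induce, was at 89.4 CPM in H20 but at 2.79 in A110, 5.59 in C91 and 3.89 in C25, inside the lower range of 1.21 to 6.41 CPM. Its log2 fold change of 2.92 ± 0.88 (SE) without diet was 0.27 without H20. Icam1, an adhesion molecule on activated endothelium, was likewise at 107 CPM in H20 and at 9.93 to 12.4 CPM in the other 3, against 7.15 to 14.8 CPM. The adaptor Myd88 was at 40.8 CPM in H20 and at 14.8 to 21.7 CPM in the other 3, against 12.4 to 16.7 CPM.

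Cish, the SOCS family member induced through STAT5, followed another animal. It was at 26.0 CPM in A110, 3.13 in C91, 7.45 in C25 and 6.93 in H20, against 2.42 to 14.0 CPM with a median of 4.76 in the lower group. The groups overlapped, but within each maternal diet the order held: A110 was above the other 5 control animals (2.90 to 14.0 CPM), and the 3 high-fat animals were above H1 at 2.42 CPM, C91 by little. The log2 fold change was 1.63 ± 0.49 (SE) with diet and 0.75 ± 0.58 without it, and -0.14 without diet when A110 was left out. The Cish promoter is shown because this gene was among the 6 higher genes with the smallest p with diet and its window is dense in the STAT recognition sequence TTCNNNGAA (N any base), in capitals. The window is the RefSeq one in GRCr8, chr8:116850719-116851018, plus strand, 250 bases before to 50 after the start, and the 4 matches begin 241, 230, 136 and 119 bases before the start. Of 33469 rat promoters of the same length, 8.87% hold at least 1 match and 2 promoters (0.00598%) hold 4 or more. The same search found no match in the Socs3 window, which says nothing about that factor elsewhere.
Cish: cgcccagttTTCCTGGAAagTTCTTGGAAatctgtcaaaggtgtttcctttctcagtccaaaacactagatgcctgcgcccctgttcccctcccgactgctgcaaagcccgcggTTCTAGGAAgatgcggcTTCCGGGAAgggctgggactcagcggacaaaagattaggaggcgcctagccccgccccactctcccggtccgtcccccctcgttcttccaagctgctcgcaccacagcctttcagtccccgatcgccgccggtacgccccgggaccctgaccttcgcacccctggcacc

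Markers of other cells did not all follow the cytokine genes. H20 and C91 had the highest sums of both cytokine genes and neutrophil markers. Summed macrophage markers were highest in C73 (2070 CPM), and summed fibroblast and matrix markers in C60 (6010 CPM). The alarmins S100a8 and S100a9, abundant in neutrophils, were high in C91 and H20: S100a8 stood at 2.94 CPM in A110, 9.95 in C91, 1.41 in C25 and 19.9 in H20, against 0.54 to 2.74 CPM, and S100a9 at 4.89, 17.2, 1.24 and 28.6 against 0.89 to 3.90 CPM. C25 was within the lower range for both. Only 4 of the 10 neutrophil markers were tested, all 4 with a higher fitted level (median 1.99 without diet and 1.33 with it); the granule genes Mpo, Elane, Ngp, Camp and Mmp8 and the receptor Cxcr2 were below the filter. The summed neutrophil markers were at 7.61 to 69.0 CPM in high-insulin and 4.54 to 9.84 CPM in lower-insulin animals. H20 was highest for all 4 and also for all 6 red blood cell markers tested, against 12.2% of all genes tested. Macrophage markers were higher in 19 of 20 genes without diet (median 0.38), and in 14 of 20 (median 0.23) when H20 was left out. Their sum, at 852 to 1910 CPM against 631 to 2070 CPM, overlapped fully. The fit with diet gave a median of 0.46, which was -0.60 with 0 of 20 higher without H1 and 1.62 without A110. Fibroblast and matrix markers showed 15 of 18 higher without diet (median 0.22, and 0.09 without H20), with sums of 2740 to 5310 and 1950 to 6010 CPM. With diet 17 of 18 were higher (median 0.38), which was 6 of 18 (median -0.10) without H1 and 18 of 18 (median 0.95) without A110. The part of blood and immune cells in the cytokine values was not tested.

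Genes of the insulin receptor pathway had medians near that of all genes. Of 18 tested genes from the receptor to PI3 kinase, 12 had a higher fitted level without diet (median 0.09) and 10 with it (median 0.06). The receptor Insr was at 24.7 to 39.0 CPM in high-insulin and 19.6 to 39.8 CPM in lower-insulin animals, a log2 fold change of 0.05 ± 0.20 (SE) without diet. Irs1 was at 20.4 CPM in A110, 21.2 in C91, 15.9 in C25 and 7.94 in H20, against 13.9 to 38.7 CPM, so that H20 had the lowest level of all 10. Irs2 was at 115, 218, 41.0 and 164 CPM in the same order, against 23.0 to 139 CPM with a median of 72.0 in the lower group. The log2 fold change of Irs2 was 0.98 ± 0.49 (SE) without diet and 0.59 ± 0.52 with it, and the groups overlapped widely. The value with diet was 0.02 without A110 and 1.09 without H1. Pik3r1, the regulatory subunit of PI3 kinase, had 0.10 ± 0.24.

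Downstream of PI3 kinase, 6 of 16 genes of the Akt, TBC and mTOR list had a higher fitted level in both fits (medians -0.07 and -0.08). Akt2, the isoform that drives glucose uptake, had a narrow spread: 118 to 124 CPM in high-insulin and 117 to 143 CPM in lower-insulin animals, with a log2 fold change of -0.09 ± 0.09 (SE). Akt1 was at 126 CPM in A110, 111 in C91, 147 in C25 and 126 in H20, against 133 to 177 CPM, and was lower within both maternal diets (-0.24 ± 0.11 without diet and -0.30 ± 0.14 with it). Slc2a4, which encodes GLUT4, was at 670 to 804 CPM against 562 to 1040 CPM (-0.13 ± 0.17), and hexokinase Hk2 at 69.5 to 93.4 against 54.8 to 101 CPM (0.02 ± 0.17). Of 18 genes of glucose transport and glycogen, 9 were higher and 9 lower without diet. Ppp1r3c, which targets a phosphatase to glycogen, was at 723 CPM in H20 and at 221 to 354 CPM in every other animal of the 10.

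**Figure D3:**
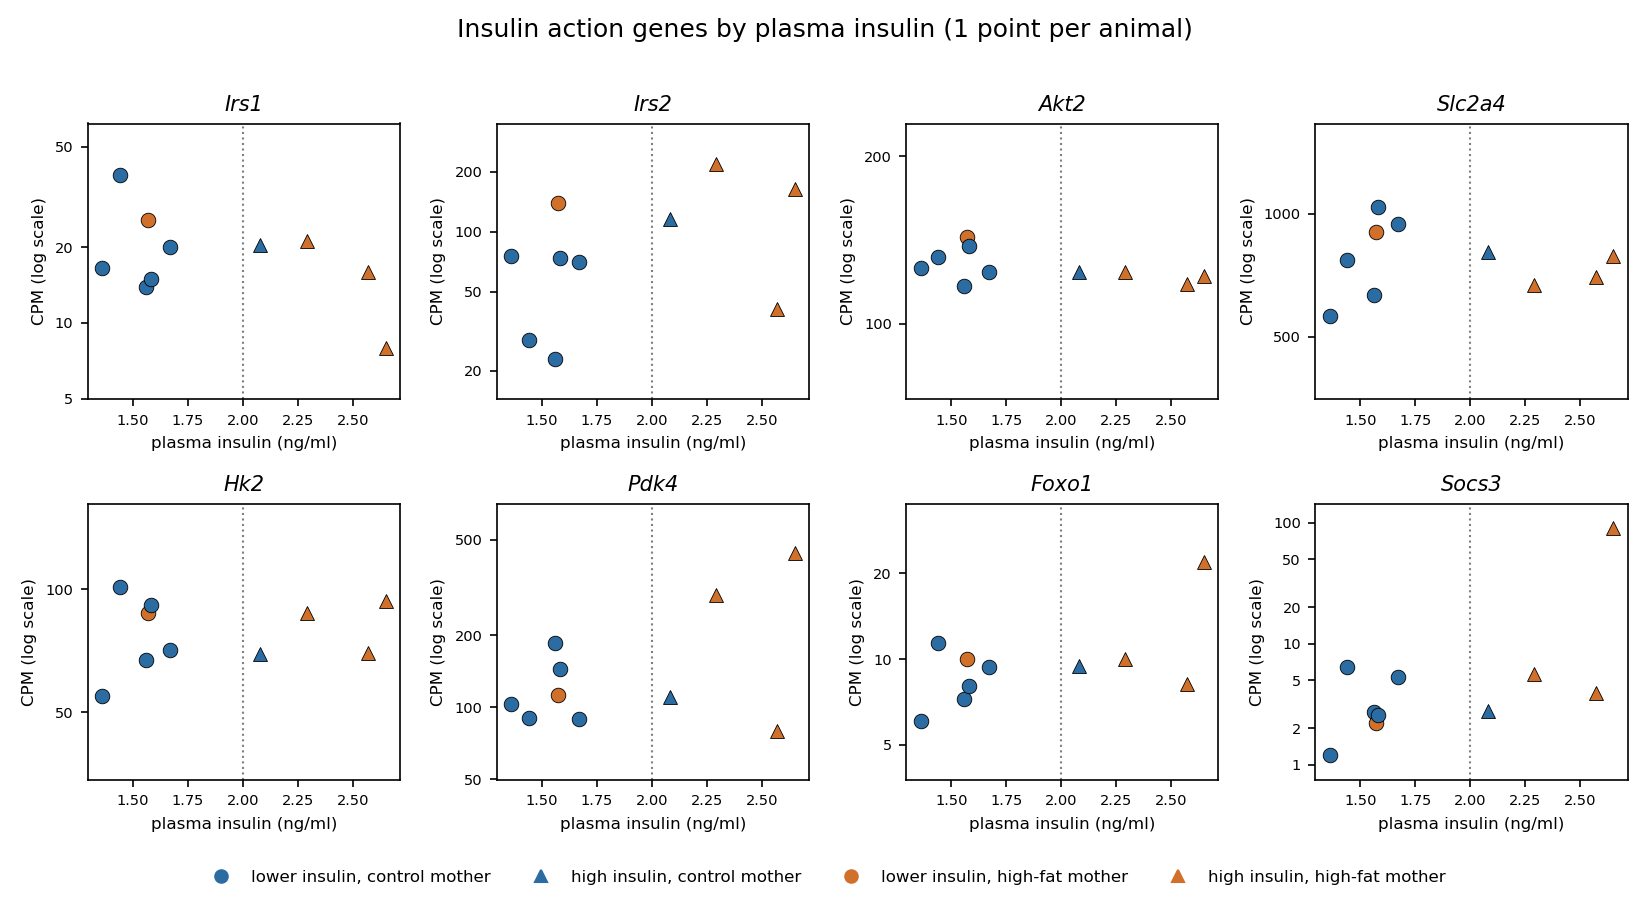
Level in CPM (log scale) of 8 genes of insulin action against plasma insulin (ng/ml), with 1 point per animal, triangles for the 4 high and circles for the 6 lower animals, blue for control and orange for high-fat mothers. Akt2, Slc2a4 and Hk2 overlap between the groups; the triangles of Pdk4, Foxo1 and Socs3 that stand out belong to H20 (441, 21.9 and 89.4 CPM) and, for Pdk4, also to C91 (295 CPM), while H20 is the lowest point for Irs1.

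FoxO factors and targets were uneven across the high-insulin animals. Of 21 tested, 14 had a higher fitted level without diet (median 0.11) and 12 with it (median 0.03). Without H20 these medians were -0.01 in both fits. H20 was the highest of the 10 animals for 9 of the 21 genes and C91 for 4, with A110 and C25 highest for none. Over all 10820 genes tested, the highest animal was H20 in 1315, C91 in 1307, A110 in 626 and C25 in 855. Foxo1 was at 9.49 CPM in A110, 10.0 in C91, 8.19 in C25 and 21.9 in H20, against 6.05 to 11.4 CPM. Pdk4, the kinase that shuts off pyruvate dehydrogenase and so spares glucose, was at 110, 295, 79.8 and 441 CPM in the same order, against 89.5 to 185 CPM, so that C91 and H20 lay above the lower group and A110 and C25 did not. Its log2 fold change was 0.94 ± 0.40 (SE) without diet, with 0.42 when H20 was left out. With diet it was 0.53 ± 0.59 and ran from -0.15 without H1 to 1.28 without A110. Ucp3, a mitochondrial carrier that fatty acids induce, was split the same way, at 44.1, 99.7, 29.3 and 118 CPM against 20.3 to 53.3 CPM. The muscle ubiquitin ligase Trim63 was at 585 CPM in C91 and 505 in H20, and at 229 and 190 CPM in A110 and C25, against 131 to 452 CPM.

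Glucocorticoid-responsive genes showed 14 of 16 with a higher fitted level without diet (median 0.33), and 13 of 16 (median 0.19) when H20 was left out. With diet 9 of 16 were higher (median 0.09, -0.07 without H20 and -0.24 without H1). H20 was highest for 11 of the 16, against 12.2% of all genes tested. The metallothionein Mt2A was at 44.9 CPM in H20 and 7.81 in C91, and at 1.20 and 1.66 CPM in A110 and C25, against 1.58 to 3.87 CPM. Fkbp5, a chaperone of the glucocorticoid receptor, was at 142 CPM in H20 and at 23.8 to 56.3 CPM in the other 3, against 18.3 to 64.8 CPM. Endoplasmic reticulum stress genes were higher in 16 of 19 (median 0.21) without diet and in 14 (median 0.14) with it. C91 was the highest animal for 10 of the 19, against 1307 of all 10820 genes tested. Without C91 the medians were 0.10 and 0.04, and the median with diet was -0.04 with 8 of 19 higher without H1 and 0.53 without A110. The chaperone Hspa5 was at 536 CPM in C91 and 240 to 315 CPM in the other 3, against 205 to 344 CPM.

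Mitochondrial genes leaned the other way by small amounts. Of 73 nuclear-encoded subunits of oxidative phosphorylation, 69 had a lower fitted level in high-insulin animals without diet, with a median of -0.11 in both fits against 0.00 for all genes, and none passed the test. All 15 tricarboxylic acid cycle genes were lower without diet (median -0.09). The size of both medians depended on single animals. When each animal was left out in turn, the oxidative phosphorylation median without diet ran from -0.182 (without C60) to -0.032 (without H10). With diet this median ran from -0.167 to -0.065, again without C60 and H10. The tricarboxylic acid cycle median ran from -0.138 (without C60) to -0.025 (without A75) without diet, and from -0.235 (without A110) to 0.007 (without H1) with diet. The sign depended on scaling: with library size alone the oxidative phosphorylation median was 0.00 with diet and -0.03 without it, where the median of all genes moved to 0.10 and 0.06. Relative to that shift the list still lay lower; the same scaling turned the tricarboxylic acid cycle and Akt list medians with diet to 0.01 and 0.03. The summed level of the subunits was 44700 to 48800 CPM in high-insulin animals and 37100 to 62900 CPM in lower-insulin ones, so the high group lay within the lower group, whose own spread was wider. H10 and A75 (62900 and 60200 CPM) were the highest, and these 2 were also the highest for the summed fast fibre markers (47500 and 42100 CPM).

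Fibre markers lay lower beside the mitochondrial genes. Slow fibre markers were lower in 9 of 11 genes without diet (median -0.16) and in 10 of 11 with it (median -0.25). The regulatory light chain Myl2 and the troponins Tnni1 and Tnnc1 were lower within both maternal diets, as were 2.05% of all genes tested. Fast fibre markers were lower in 10 of 12 without diet (median -0.46, and -1.21 without A110) and in 9 of 12 with it (median -0.22), which turned to 0.28 without H1. The part of fibre type in the mitochondrial values was not tested.

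Esrra, the nuclear receptor that works with PGC-1 on mitochondrial genes, was lower without overlap, at 195 CPM in A110, 188 in C91, 185 in C25 and 201 in H20 against 209 to 247 CPM with a median of 219. The step was small, with a log2 fold change of -0.22 ± 0.09 (SE) without diet and -0.24 ± 0.12 with it. Sirt3, a mitochondrial deacetylase, was at 50.0, 41.6, 51.2 and 56.1 CPM against 51.2 to 80.9 CPM, lower within both maternal diets, with -0.42 ± 0.15 and -0.51 ± 0.19. Ppargc1a, the coactivator PGC-1 alpha, was not lower: 11.3, 10.9, 5.96 and 16.0 CPM against 4.76 to 12.8 CPM. Of 14 glycolysis genes 13 were lower without diet (median -0.13). Eno3, the muscle enolase, was at 1370 to 2200 against 1270 to 2720 CPM. With H1 left out of the fit with diet, 10 of 14 glycolysis genes and 8 of 15 tricarboxylic acid cycle genes were higher. The gene that was higher in the fit over all 10 animals was Pfkfb3, which makes the activator of glycolysis fructose 2,6-bisphosphate, at 32.4 CPM in H20 and 7.73 to 13.4 CPM in the other 3, against 4.19 to 11.6 CPM.

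Among the other genes with lower levels in high-insulin animals, Nudt3, an inositol phosphate hydrolase, was at 179 to 215 CPM against 229 to 253 CPM (-0.29 ± 0.09, SE, without diet). Inpp5a, an inositol phosphatase, was at 78.0 to 88.0 CPM against 90.8 to 105 CPM (-0.27 ± 0.09). Pcgf1, a Polycomb subunit, was at 5.92 to 6.91 CPM against 7.02 to 9.17 CPM (-0.41 ± 0.13). Smtn, the smooth muscle protein smoothelin, was at 55.9 to 70.8 against 71.0 to 89.1 CPM. In these 4 genes the groups did not overlap, and the gaps were narrow. Lgals12, a galectin of fat cells, rested on few reads, with 2 to 8 counts in the high-insulin and 6 to 24 in the lower-insulin libraries (0.17 to 0.60 and 0.56 to 1.94 CPM). No fold is given for so few counts, and without H1 or A89 it missed the count filter. Adipocyte markers as a list were lower in 10 of 12 without diet (median -0.33), and the median with diet was -0.16. Without C60 these medians were -0.11 and 0.06. The sums apart from Car3, which muscle fibres also make, were 514 to 885 CPM against 606 to 975 CPM.

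Without diet, lipid lists had medians near that of all genes. SREBP-1 and lipogenesis genes were higher in 7 of 11 (median 0.04), sterol synthesis genes in 10 of 17 (0.01), fatty acid oxidation genes in 14 of 24 (0.03), lipid uptake and lipolysis genes in 9 of 16 (0.02) and ceramide and diacylglycerol genes in 11 of 16 (0.05). With diet, sterol synthesis genes were higher in 12 of 17, with a median of 0.18 that stayed between 0.10 and 0.22 whichever animal was left out, and the other 4 medians were between -0.02 and 0.03. Pnpla2, the first enzyme of triglyceride breakdown, was highest in C91 at 561 CPM and H20 at 385, against 204 to 335 CPM in the lower group and 256 to 266 CPM in C25 and A110. Of 13 clock genes, 4 were higher without diet (median -0.12), and 9 (median 0.03) without C91; with diet 6 were higher (median -0.05, and 0.08 without H10). Myh4, the fast myosin heavy chain of type IIB fibres, was at 149 CPM in A110 and at 6.83 to 18.9 CPM in the other 9 animals, and its fitted log2 fold change of 1.89 without diet became -0.11 without A110.

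**Figure D4:**
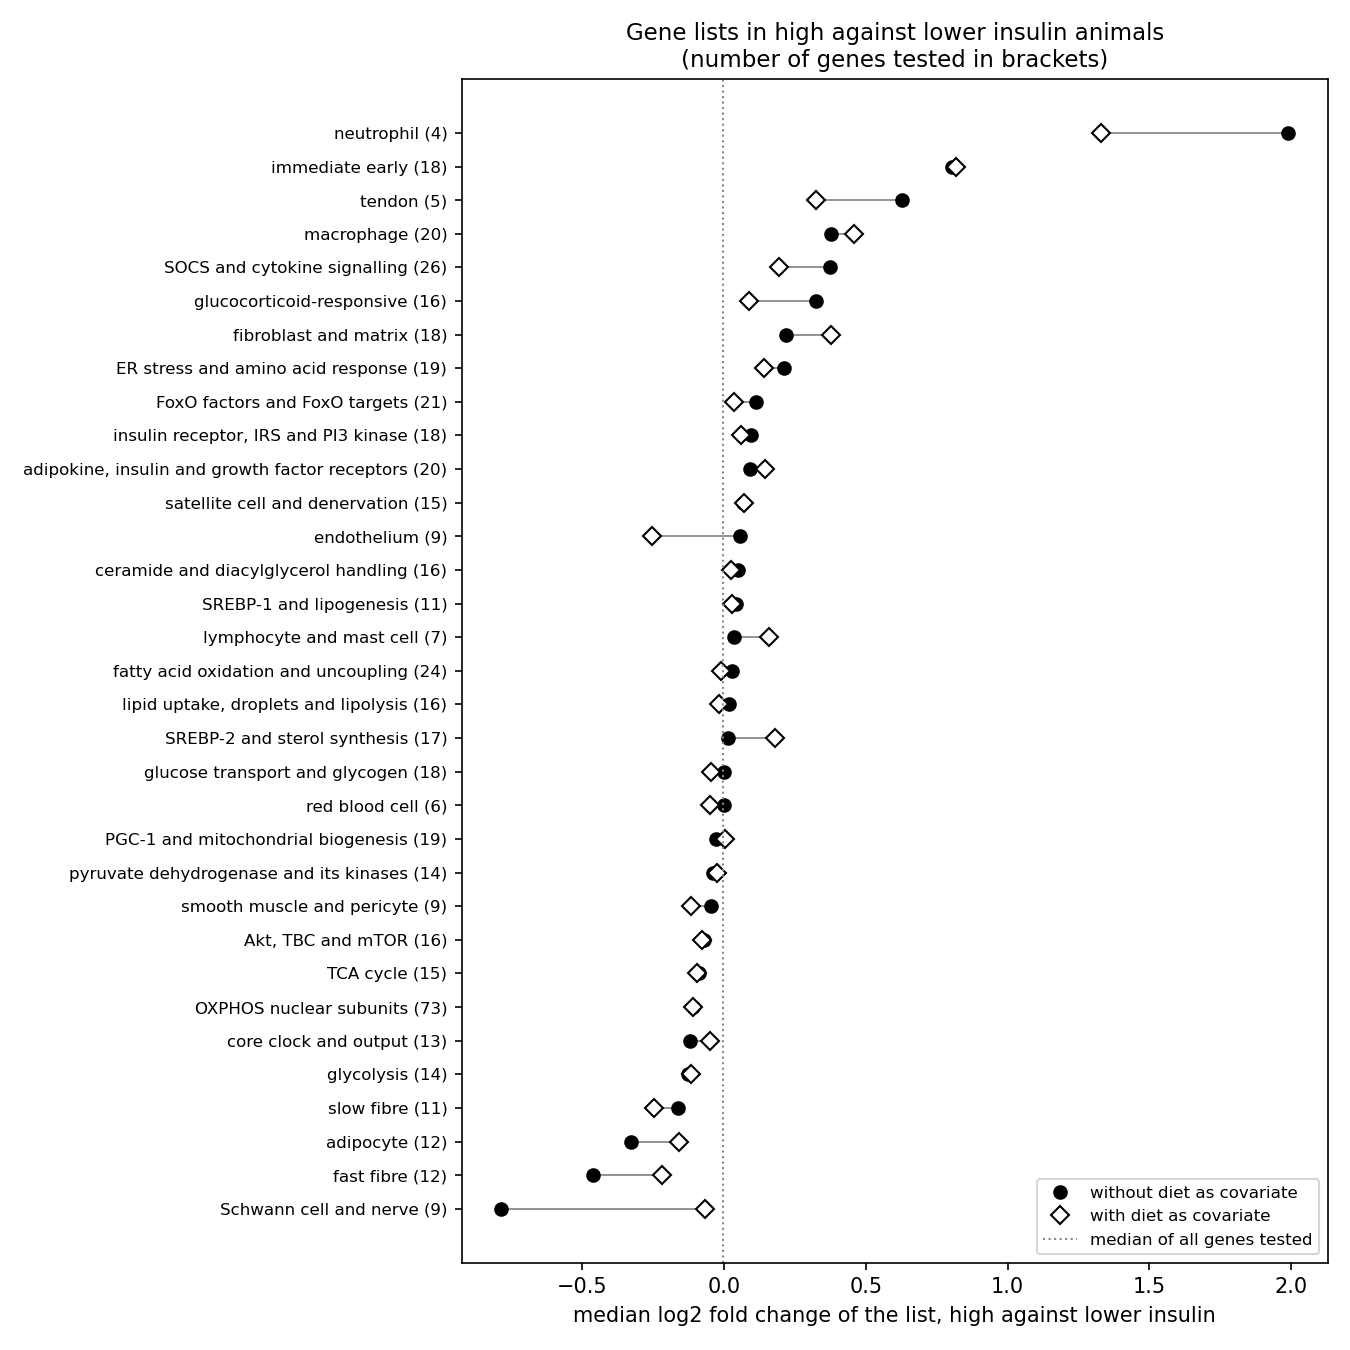
Median log2 fold change of high against lower insulin for each gene list, filled circles without and open diamonds with maternal diet as covariate, the number of genes tested in brackets and the median of all genes as a dotted line. Immediate early genes lie at 0.80 and 0.82 in the 2 fits, neutrophil markers (4 genes) highest at 1.99 and 1.33, and the oxidative phosphorylation list at -0.11 in both.

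As a continuous measure, insulin gave 0 genes past an adjusted p of 0.05 with diet (0%; smallest adjusted p = 1.00; 115 genes at an unadjusted p under 0.05) and 0 without it (0%; smallest adjusted p = 0.357 for Junb; 377 genes, of which 289 had a positive slope). Leaving out C25 from the fit without diet gave 3 calls, Junb, S100a8 and S100a9. Without diet DESeq2 called 6 genes and edgeR's likelihood ratio test 19, 18 of them with a positive slope; with diet both called 0. Within the 6 lower-insulin animals alone, whose insulin spans 1.36 to 1.67 ng/ml, 0 genes passed (smallest adjusted p = 0.205), 1397 had an unadjusted p under 0.05, and the slope of Akr1b8 was -1.03 there against 1.72 over all 10. With HOMA-IR in place of insulin, 30 genes passed without diet, all with a positive slope, and 6 with it; both counts were 0 without H20, the animal with a glucose of 11.0 mmol. The 30 included Junb, Socs3, Icam1, Myd88 and the mRNA decay factor Zfp36.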

How the data were processed

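Poly(A) RNA of soleus from 11 rats was sequenced for 36 cycles on a Genome Analyzer IIx, per the labels' protocols. The authors deposited 1 table of raw counts per gene; FastQC, BWA, HTSeq and edgeR are named per the submitters' processing notes, while genome build, annotation and strand setting were not given in the sources used here, so overlapping and near-identical genes are uncertain. The 16810 gene names held 14002 current and 2346 older RefSeq symbols and 24 date-like names (0.107% of counts), which were kept in library sizes.

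From these counts 10820 genes passed edgeR's filterByExpr and 5990 did not. TMM scaling and edgeR's quasi-likelihood F test (edgeR 4.0.16, limma 3.58.1, R 4.3.3) gave log2 fold changes of high over lower insulin, and slopes per ng/ml, each with and without maternal diet; p was adjusted by Benjamini-Hochberg over all genes tested (threshold 0.05), and the SE is the log2 fold change over the root of F. The fit was tested on simulated data. Animal measures were compared by exact permutation over 210 assignments (Python 3.11.15, NumPy 2.4.6, pandas 2.3.3; figures by matplotlib 3.10.9). Alternatives were other scalings and filters, DESeq2 1.42.0, other edgeR and limma tests, covariates, HOMA-IR, and leaving out each animal; HOMA-IR without H20 was chosen after seeing the data. Totals of 10156225 to 15362013 counts limit the precision, and the floor covers counting error only.

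The comparison and gene lists were chosen with earlier results of these data known. Named genes were, per group fit and direction, the 6 with the smallest p, up to 2 per list by p without diet, and 12 genes of insulin action, of which Srebf1 is not analysed here; 2 genes that this rule chose are not reported here. Egr1, Egr2, Egr3, Nr4a1, Nr4a2, Jun, Jund, Icam1, Fkbp5, Hspa5, Trim63 and Zfp36 were named from the lists after their values were seen, as were genes called only under an alternative.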

Additional observations from a re-analysis of the deposited data

Results flagged for a closer look

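In 16 of 212 groups of 4 or 6 animals tested, 1 animal lay apart from the rest by Dixon's criterion, where chance gives about 1 in 20 (10.6). Among high-insulin animals, H20 accounted for 6: Junb at 360 CPM (others 77.2 to 109), Socs3 at 89.4 CPM (2.79 to 5.59), Mt2A at 44.9 CPM (1.20 to 7.81), Foxo1 at 21.9 CPM (8.19 to 10.0), Akr1b8 at 19.7 CPM (4.72 to 6.40) and Slc4a1, the anion exchanger of red blood cells, at 2.33 CPM (0.91 to 0.99). C91 had a heart of 1.30 g (others 1.82 to 1.91), a liver of 13.4 g (26.7 to 28.2) and Pcgf1 at 6.91 CPM (5.92 to 6.04). A110 had Myh4 at 149 CPM (6.83 to 15.3).

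Among lower-insulin animals, A89 stood apart for the Schwann cell gene Prx at 111 CPM (others 6.05 to 9.84), and for the fatty acid desaturase Scd at 142 CPM (45.5 to 78.0). A75 had Fos at 117 CPM (21.4 to 49.2) and Inpp5a at 90.8 CPM (99.9 to 105). H1, the only high-fat animal of that group, had the adipogenic receptor Pparg at 33.1 CPM (15.6 to 19.9) and the steroid sulfatase Sts at 83.6 CPM (49.7 to 60.4).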

How the results depend on the processing

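Calls at an adjusted p of 0.05 were 0 under every alternative run except these. With insulin group and diet, edgeR's likelihood ratio test called 1; without diet it called 2, as did DESeq2. For the slope, HOMA-IR in place of insulin gave 6 with diet and 30 without it, and without diet DESeq2 gave 6 and the likelihood ratio test 19. Leaving out 1 animal at a time gave 0 to 3 calls for the slope without diet, 3 without C25, and 0 in the other fits. Leaving out 1 animal at a time turned the sign of the log2 fold change in 28 of 91 named genes with diet, in 22 of them farthest without H1, and in 13 without diet, and of 22 and 15 of 33 list medians. The genes below are those that turned although the value over all 10 animals exceeded its SE, each with its range. The glucose difference ran from -0.24 mmol without H20 to 1.62. With diet, the log2 fold change ran from -0.18 to 1.19 for Chrna1, from -0.15 to 0.71 for Eif4ebp1 and from -0.37 to 3.90 for Socs3, each lowest without H1, and from -0.12 (without A110) to 3.59 for Myh4. Without diet it ran from -0.14 to 1.15 for Cish and from -0.11 to 2.25 for Myh4, both lowest without A110, from -1.60 to 0.26 (without A89) for Prx, and from -0.058 (without H20) to 0.59 for Ppp1r3c. With diet, the fit without H1 compares A110 with the 5 other control animals alone. The fit without A110 compares the 3 high-fat high-insulin animals with H1 alone. These contrasts had opposite signs for Socs3 (-0.37 and 3.90), Mt2A (-0.98 and 3.52) and the macrophage list median (-0.60 and 1.62). They had the same sign for Fos (2.24 and 1.96) and Junb (0.92 and 1.86). Which feature of the animal left out turned each value was not tested. With total fat share as a covariate and no diet the log2 fold change was -0.0084 for Pnpla2 and 0.0039 for Scd. In the lower-insulin animals alone the Akr1b8 slope was -1.03. No paired analysis was possible because the numbers in the column names run separately within each maternal diet and nothing ties a number to a shared litter, batch or day. With 4 against 6 animals, and only A110 and H1 crossing diet and insulin, the median SE of a log2 fold change was 0.17 without diet and 0.22 with it, which limits what these libraries can show.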

Other observations

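A37, an offspring of a high-fat mother without an insulin label, weighed 625 g with 28.2 g of total fat (4.51%). Of the 91 named genes it lay above all 10 other animals in 14 and below them in 9. The macrophage receptors Cd163 and Mrc1 were at 107 and 92.8 CPM, and the summed macrophage markers at 2890 CPM against 631 to 2070 CPM in the others. Junb was at 63.2, Fos at 25.3 and F2rl1 at 8.32 CPM, each within the range of the lower-insulin animals.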
